A study of Mus musculus with 8 samples.

Results

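Genes that mark the layers and the excitatory identity of cortical neurons were followed in visual cortex of mice that had lost 1 eye. The set was defined as 8 genes (Cux1, Etv1, Tbr1, Lmo4, Mef2c, Neurod2, Pcp4 and Foxp1), and its members were all probe sets annotated to 1 of these symbols and to no other gene. The rule found 12 probe sets of 7 genes, among 8251 genes with such a probe set on the array. Etv1, an ETS factor of deep-layer projection neurons, lay only on a probe set shared with another gene and was not analysed here, and a probe set that Pcp4 shares with another gene was not used either. A mean log2 signal above the 40th percentile, which corresponds to a signal of about 110, was reached by 10 probe sets of 6 genes, called above the filter here. The dim probe sets below it were 1 of 2 for Cux1 and the 1 of Pcp4, so Pcp4 gave no usable level.

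The samples were 4 arrays of deprived and 4 arrays of non-deprived visual cortex from wild-type C57Bl6 mice aged 24 postnatal days. All 4 mice had 1 eye removed at postnatal day 20, 4 days before. Deprived cortex lay opposite the removed eye and non-deprived cortex on its side, so both groups came from operated animals, without an unoperated group. Tissue was dissected from coronal slices and holds all cortical cell types. The design text speaks of pooling and the labels do not tie an array to an animal. The p-values therefore set a difference only against the spread between these samples, and part of that spread may be technical. The comparison asks whether transcripts of layer genes differ between the hemispheres.

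During cortical development, transcription factors divide excitatory neurons into layers that connect to different targets: upper-layer neurons mostly project within the cortex, and deep-layer neurons to thalamus, brainstem and spinal cord. Many of these factors stay on after birth and serve as markers of the layers. Cux1, a cut-homeodomain factor, marks upper layers, and Tbr1, a T-box factor, and Foxp1, a forkhead factor, are strongest in deep or middle layers. Mef2c, a MADS-box factor that restrains synapse number, and Neurod2, a basic helix-loop-helix factor needed for thalamocortical maturation, are found in excitatory neurons of most layers. The set is not made of transcription factors alone. Lmo4 is a LIM-only cofactor that does not bind DNA by itself, and Pcp4 encodes a small calmodulin-binding peptide.

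None of the 10 probe sets above the filter was called different in deprived cortex. In limma, 0 passed at an adjusted p under 0.05 in either direction, each with adjusted p = 0.995, and 0 had an unadjusted p under 0.05. Across all 7453 tested probe sets 0% were called, Fos included, and 2.67% had an unadjusted p under 0.05. A p that misses the threshold does not show that levels were alike, and the intervals give what these arrays allow. For 5 of the 10 the difference (deprived minus non-deprived) lay below 0 and for 5 above, with a median log2 difference of 0.01 against 0.02 over all tested probe sets. The median size of the difference regardless of sign was 0.12, against 0.13 over all tested. The 95% interval of the difference excluded a 1.5-fold change either way for 9 of the 10. The exception was Neurod2, whose interval reached a fold of 0.587. Such a change was excluded for 53.2% of all tested probe sets. With only the brightest probe set of each gene, it was excluded for 5 of 6 members. Among lists described below, it was excluded for 5 of 20 probe sets of other layer genes and 6 of 15 of relatives. The count depends on interval width as well as on the difference, so no steadiness particular to layer genes follows from it. With the actin 3' to 5' ratio, a measure of RNA integrity taken between control probe sets, as a covariate, 7 of the 10 lay below 0 and the median was -0.17. With the same ratio of Gapdh, 3 lay below 0 and the median was 0.07. In bulk tissue, fewer cells of a type and less RNA per cell cannot be told apart.

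**Figure D1:**
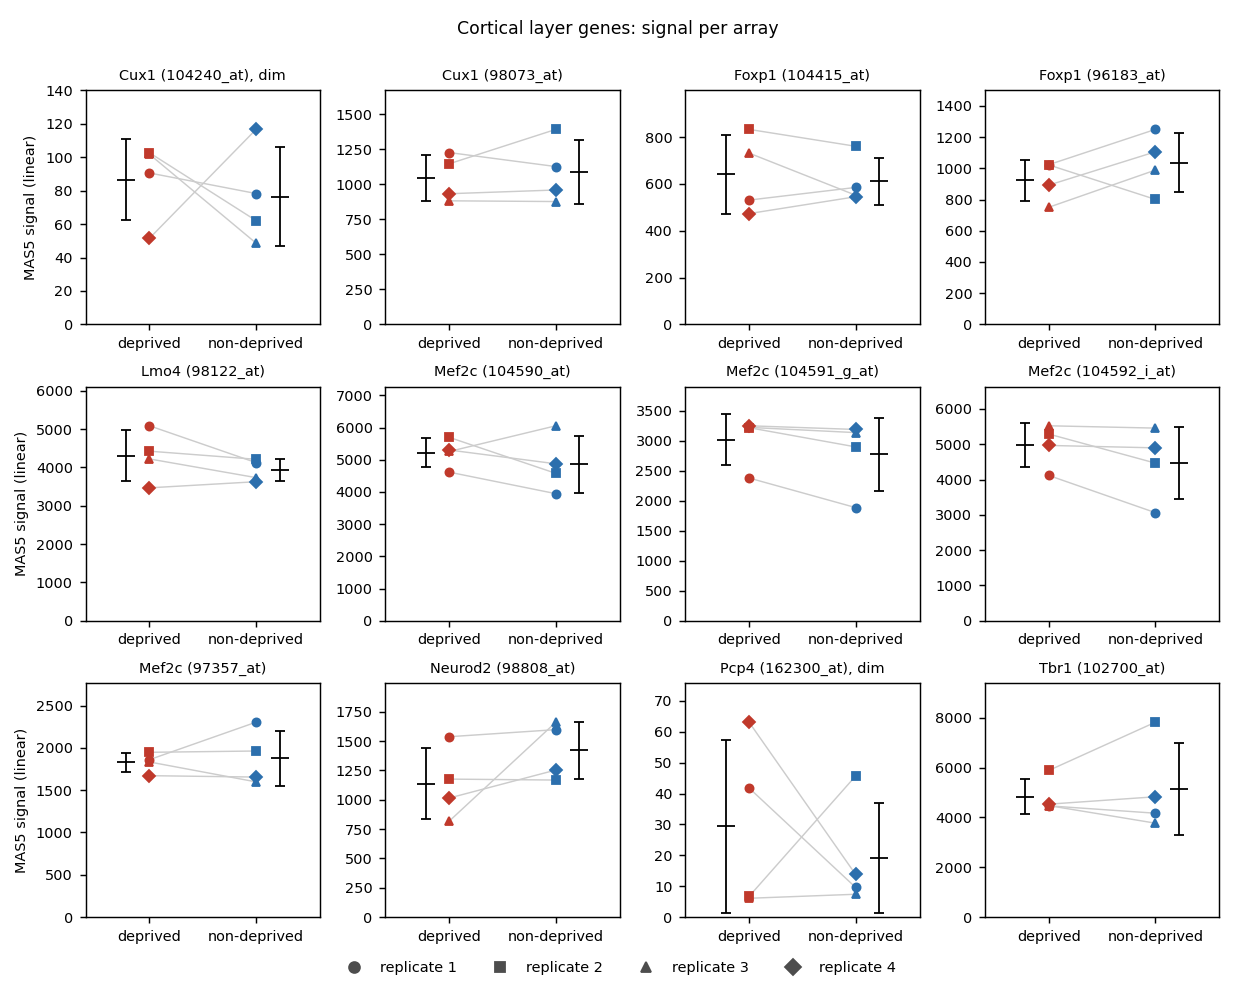
MAS5 signal of the 12 probe sets on each array, with deprived cortex at the left of each panel. Points are arrays, marker shape gives the replicate number, grey lines join equal numbers and black bars show the mean ± SD (n = 4); the groups overlap in every panel.

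Among the upper-layer genes, the brighter Cux1 probe set (98073_at) had signals of 1226, 1146, 882 and 933 in deprived cortex replicates 1 to 4, against 1126.5, 1392, 877 and 959 in non-deprived cortex. The non-deprived sample 2 was the highest of all, both samples 3 were the lowest of their groups, and the groups overlapped. The mean was 1047 ± 166 in deprived and 1089 ± 227 in non-deprived cortex (SD, n = 4 each), a log2 difference of -0.05 with a 95% interval of -0.43 to 0.33 (exact permutation p = 0.8286, two-sided). It was lower in 2 of 4 same-numbered pairs. The dim Cux1 probe set (104240_at) ran from 51.5 to 102.7 in deprived and from 48.6 to 116.7 in non-deprived cortex. Its difference of 0.17 is given without a test.

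Lmo4, the LIM-only cofactor that is also found in upper layers, had signals of 5086, 4424, 4221 and 3467 in deprived cortex, against 4125, 4212, 3733.5 and 3627 in non-deprived cortex. The deprived samples held both the highest and the lowest value. The mean was 4299.6 ± 667 in deprived and 3924 ± 287 in non-deprived cortex (SD, n = 4 each). The log2 difference was 0.12 with a 95% interval of -0.18 to 0.42 (exact permutation p = 0.4), higher in 3 of 4 pairs. Fitted together with the actin ratio, it differed by -0.01, and with the Gapdh ratio by 0.12. The actin ratio was 1.64 ± 0.239 in deprived and 1.39 ± 0.179 in non-deprived arrays (SD, n = 4 each, exact permutation p = 0.171). The Gapdh ratio lay the other way, at 0.842 ± 0.034 in deprived and 0.898 ± 0.054 in non-deprived arrays (exact permutation p = 0.143).

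Mef2c was the best covered member, with 4 probe sets above the filter. Probe set 104590_at had signals of 4616, 5697, 5259 and 5304 in deprived cortex, against 3948, 4579, 6057 and 4876 in non-deprived cortex. Non-deprived sample 3 was the highest and non-deprived sample 1 the lowest, with all deprived samples between them. The mean was 5219 ± 447 in deprived and 4865 ± 884 in non-deprived cortex (SD, n = 4 each), a log2 difference of 0.11 with a 95% interval of -0.21 to 0.43 (exact permutation p = 0.4). The next in the design, 104591_g_at, had 2378, 3217, 3222 and 3249 in deprived cortex, against 1885, 2897, 3135 and 3187.5 in non-deprived cortex. The third, 104592_i_at, had 4115, 5288, 5523 and 4966 in deprived cortex, against 3061, 4465, 5457.5 and 4898 in non-deprived cortex. In these 3 probe sets sample 1 was the lowest of both groups. Probe sets 104591_g_at and 104592_i_at had log2 differences of 0.14 (95% interval -0.26 to 0.54) and 0.18 (-0.21 to 0.57), each higher in 4 of 4 pairs. Without non-deprived sample 1 the difference was 0.02 for 104590_at, -0.04 for 104591_g_at and 0.0056 for 104592_i_at. Across all tested probe sets, 8.95% were higher and 6.92% lower in 4 of 4 pairs. No member was lower in 4 of 4, and the 2 higher ones belong to 1 gene.

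The other Mef2c probe set, 97357_at, ran the other way between samples. It had signals of 1860, 1947, 1833 and 1671 in deprived cortex, against 2303, 1962.5, 1598 and 1655 in non-deprived cortex. Non-deprived sample 1, the lowest on the other 3 probe sets, was here the highest. The log2 difference was -0.03 with a 95% interval of -0.34 to 0.29, lower in 2 of 4 pairs. In pair 1 the difference was -0.31 here, against 0.22, 0.33 and 0.42 on the other 3. The probe sets of Mef2c thus gave no common direction, and their sequences and the transcripts they detect were not analysed here.

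Neurod2 had the largest difference of the members. Its signals were 1537, 1176, 818 and 1015 in deprived cortex, against 1597, 1168, 1661 and 1253 in non-deprived cortex. Deprived samples 3 and 4 were the lowest of all, but deprived sample 1 lay above non-deprived samples 2 and 4, so the groups overlapped. The mean was 1136 ± 305 in deprived and 1420 ± 245 in non-deprived cortex (SD, n = 4 each). The log2 difference was -0.34, a fold of 0.791, with a 95% interval of -0.77 to 0.09 (exact permutation p = 0.171), and 11.1% of all tested probe sets had a larger one in size. The differences within pairs were -0.05, 0.01, -1.01 and -0.30, so pair 3 gave most of it. Without deprived sample 3 the difference was -0.20. With the replicate number as a block the interval was -0.70 to 0.03 and limma's adjusted p = 0.705.

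Of the deep-layer genes, Tbr1 had signals of 4463, 5885, 4473 and 4531 in deprived cortex, against 4168.5, 7820.1, 3768 and 4828 in non-deprived cortex. Sample 2 was by far the highest in both groups. The mean was 4838 ± 699 in deprived and 5146 ± 1835 in non-deprived cortex (SD, n = 4 each), a log2 difference of -0.04 with a 95% interval of -0.49 to 0.42 (exact permutation p = 0.886). It was lower in 2 of 4 pairs. Without non-deprived sample 2 the difference was 0.18, without non-deprived sample 3 it was -0.17, and with quantile scaling it was 0.02.

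Foxp1, a forkhead repressor, was measured by a pair of probe sets with different sample patterns. Probe set 96183_at had signals of 1024, 1022, 751 and 893 in deprived cortex, against 1250.0, 801, 989 and 1106 in non-deprived cortex. The lowest value was a deprived and the highest a non-deprived one, with the others mixed. The log2 difference was -0.16 with a 95% interval of -0.53 to 0.21 (exact permutation p = 0.4), lower in 3 of 4 pairs. Probe set 104415_at had 531, 833, 732 and 473 in deprived cortex, against 585, 761, 552 and 545 in non-deprived cortex. Here the deprived samples held the highest value and the lowest. The log2 difference was 0.05 with a 95% interval of -0.38 to 0.48. With the actin ratio as a covariate it was -0.22, and with the Gapdh ratio 0.03.

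Pcp4, the calmodulin-binding peptide gene of deep-layer neurons, was at the floor of the array on its own probe set. Its signals were 41.8, 6.7, 6.1 and 63.1 in deprived cortex, against 9.6, 45.7, 7.4 and 13.8 in non-deprived cortex. All 8 lay below the filter signal. The 10th percentile of signal was 17.2 ± 2.70 in deprived and 13.4 ± 0.678 in non-deprived arrays (SD, n = 4 each, exact permutation p = 0.0286, the smallest possible), and its part in the values of dim probe sets was not tested. No statement on Pcp4 can be drawn from this probe set.

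**Figure D2:**
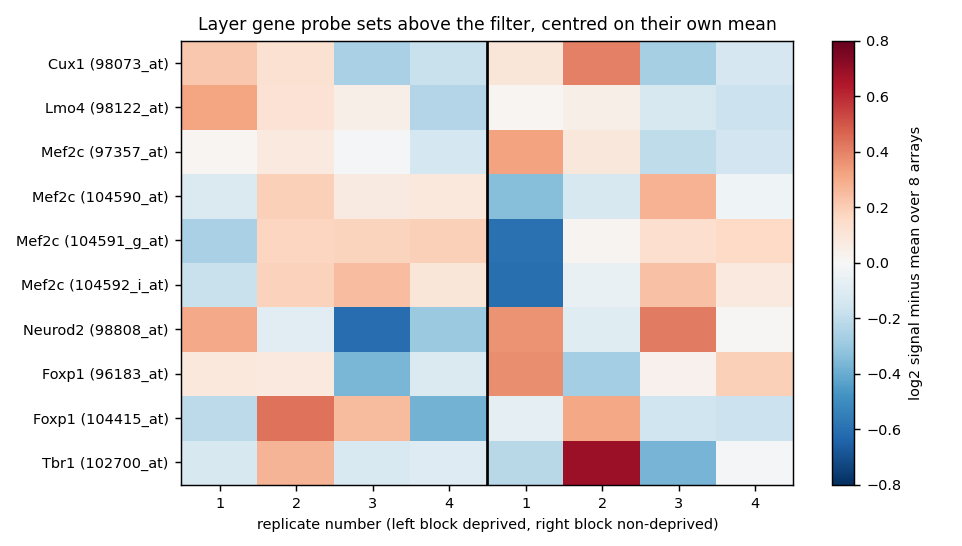
Log2 signal of the 10 probe sets above the filter, each centred on its own mean over 8 arrays, with deprived replicates 1 to 4 left of the line and non-deprived replicates 1 to 4 right of it. Red is above and blue below the mean; Tbr1 is high in replicate 2 of both groups and 3 of the 4 Mef2c probe sets are low in replicate 1 of both.

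Arrays that share a replicate number thus shared part of their deviation, and with the number as a block 0 of the 10 probe sets were called, the smallest adjusted p in limma being 0.705. Under this fit 0% of all tested probe sets were called, and at an unadjusted p under 0.05 there were 0 of 10 members against 7.03% of all tested. The block narrowed the interval of Mef2c probe set 104592_i_at to -0.06 to 0.41 and that of Lmo4 to -0.10 to 0.34. No probe set of the members separated the groups without overlap, while 0.805% of all tested probe sets lay entirely below in deprived cortex and 1.23% entirely above.

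**Figure D3:**
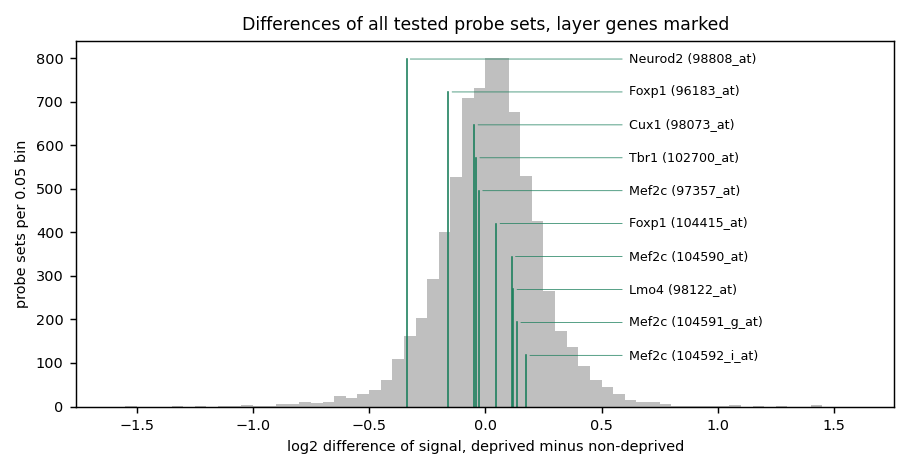
Histogram of log2 differences (deprived minus non-deprived) of the 7453 tested probe sets, with the 10 layer gene probe sets above the filter drawn as green lines. Neurod2, at -0.34, is the member farthest from 0, and the highest is a Mef2c probe set at 0.18.

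Genes that neurons induce with activity give a scale for these differences, measured on the same arrays. They were known from earlier results of these data to be lower in deprived cortex, and none passed adjusted over all probe sets. Fos had signals of 1272.5, 1501, 1669 and 1538 in deprived cortex, against 2425, 3776, 2317 and 2755 in non-deprived cortex, with no overlap. Its log2 difference was -0.89 with a 95% interval of -1.25 to -0.52. Egr1 had -0.71 (-1.15 to -0.28), Nr4a1 -0.83 (-1.25 to -0.40), and the Junb probe sets -0.88 (-1.45 to -0.31) and -0.68 (-1.0 to -0.36). These are the probe sets above the filter; the dim probe sets of Fos (161716_at) and Egr1 (161802_i_at) had 0.45 (-0.25 to 1.14) and 0.16 (-0.89 to 1.21). The lowest lower bound among members above the filter was the -0.77 of Neurod2, and next came the -0.53 of Foxp1. The difference between members and these genes was not tested.

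**Figure D4:**
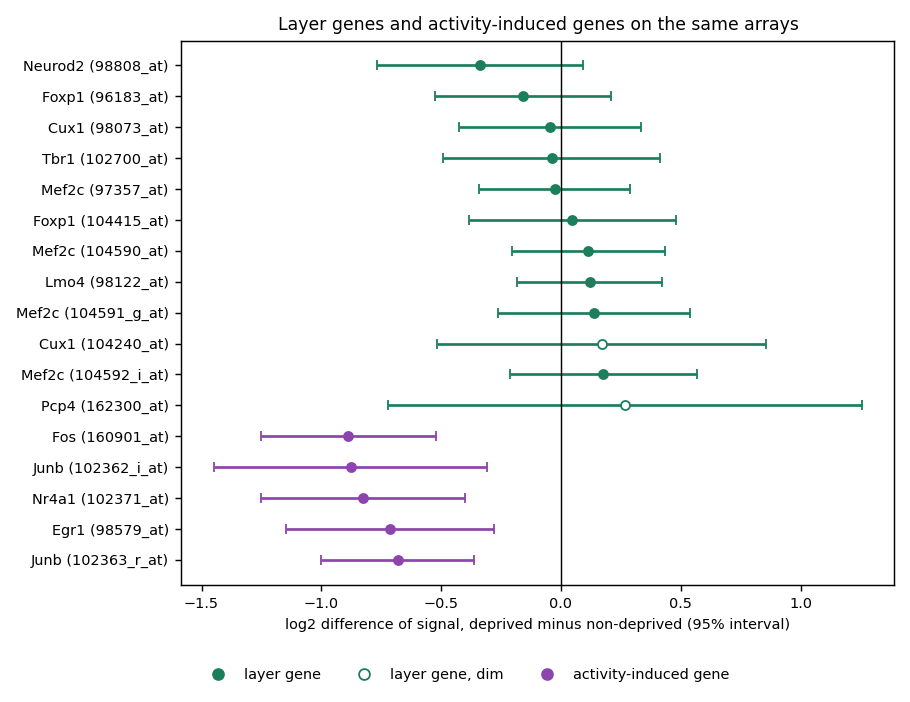
Log2 difference of signal (deprived minus non-deprived) with its 95% interval for each probe set of the layer genes (green, open where dim) and for the probe sets above the filter of 4 activity-induced genes (purple), n = 4 arrays a group. All green intervals include 0, and the purple ones drawn lie below it.

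Family relatives and binding partners of the members were read whatever their result. Of 17 such genes, 13 had a probe set and 12 had one above the filter, 15 probe sets in all. Of these 0 were called, and 2 had an unadjusted p under 0.05, both lower in deprived cortex, against 1.22% of all tested probe sets. Lmo1, a LIM-only relative of Lmo4, had signals of 223, 153, 178 and 355 in deprived cortex, against 475, 326, 304 and 452 in non-deprived cortex. Deprived sample 4 overlapped with the non-deprived range, and all other deprived samples lay below it. The log2 difference was -0.78 with a 95% interval of -1.34 to -0.22, lower in 4 of 4 pairs, and limma's adjusted p = 0.995, or adjusted p = 0.484 with the replicate block. Pcp4l1, a relative of Pcp4, had 794, 439.8, 463 and 557 in deprived cortex, against 1012, 687, 637 and 796 in non-deprived cortex on probe set 97297_at. Its log2 difference was -0.48 (95% interval -0.94 to -0.02), lower in 4 of 4 pairs, whereas the other Pcp4l1 probe set, 160264_s_at, had -0.17 (-0.79 to 0.46).

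The other MEF2 factors lay above 0. Above the filter, Mef2b had a log2 difference of 0.37 (95% interval -0.10 to 0.83) and Mef2d 0.30 (-0.17 to 0.77), each higher in 4 of 4 pairs. Mef2a had 0.19 (-0.14 to 0.52), higher in 3 of 4. The dim probe sets of Mef2b (93418_g_at) and Mef2a (94133_r_at) had 0.26 and 0.008, each higher in 2 of 4 pairs, and were not tested. Mef2d had signals of 5436, 8909, 9108 and 6046 in deprived cortex, against 4346, 8052, 5790.4 and 5668 in non-deprived cortex. Its groups overlapped, and samples 2 were high in both. With the replicate block the interval of Mef2d was 0.05 to 0.56, with adjusted p = 0.703 in limma. Neither these genes nor Mef2c passed the test in any fit, so no direction is called for the family.

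Of the remaining relatives, Cux2, an upper-layer paralog of Cux1, had a log2 difference of 0.20 (95% interval -0.42 to 0.82). Neurod6 and Neurod1, relatives of Neurod2, had -0.26 (-0.89 to 0.38) and 0.13 (-0.63 to 0.88). Ldb1 and Ldb2, scaffold proteins that bind LIM domains such as those of Lmo4, had -0.08 and 0.13. The Lmo2 probe sets had 0.09 and 0.11, and those of the ETS factor Etv4 had 0.10 and -0.09. Eomes, a T-box relative of Tbr1 that marks cortical progenitors, was dim, with signals of 1.0 to 39.9 over its probe sets and all 8 arrays. Etv5, Lmo3, Foxp2 and Foxp4 had no probe set with 1 symbol.

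**Figure D5:**
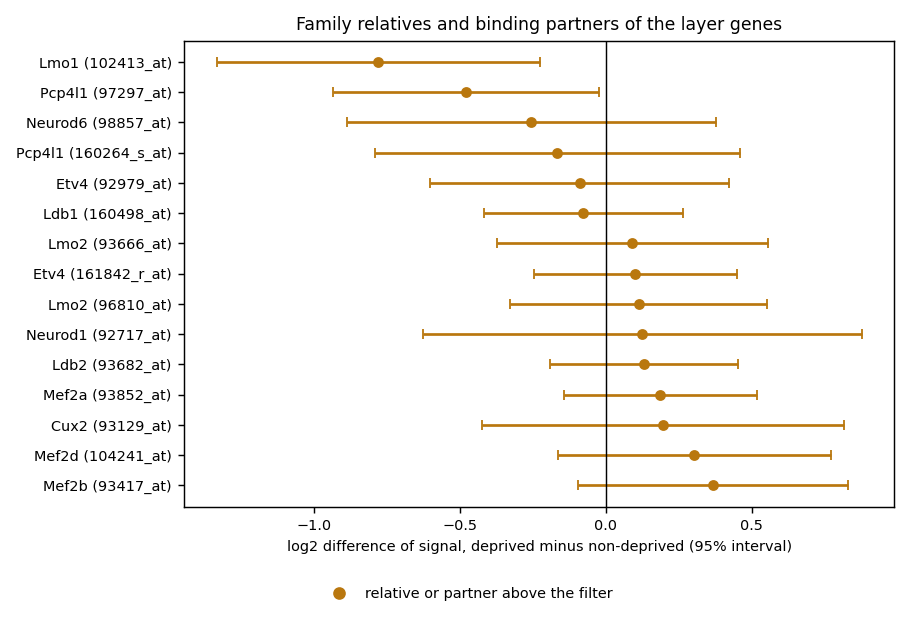
Log2 difference of signal (deprived minus non-deprived) with its 95% interval for the 15 probe sets above the filter of family relatives and binding partners, n = 4 arrays a group. The intervals of Lmo1 and of 1 Pcp4l1 probe set lie below 0 and all others include it.

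A list of 35 other layer and excitatory-neuron genes was read in the same way. It repeats Cux2, Ldb2, Neurod1 and Neurod6 from the relatives, so their probe sets are counted in both lists. Of these, 21 had a probe set and 17 had one above the filter, with 20 probe sets. In limma 0 were called lower and 0 higher, 10 differences lay below 0 and 10 above, and the median log2 difference was 0.05. The smallest p-values belonged to both probe sets of Nr4a2, an orphan nuclear receptor of deep-layer neurons that is also induced by activity. Probe set 92249_g_at had 236, 174, 124.5 and 178.5 in deprived cortex, against 302.5, 201, 239.5 and 224 in non-deprived cortex. The differences were -0.43 (95% interval -0.91 to 0.06) for it and -0.33 (-0.73 to 0.07) for 92248_at. With the replicate block the interval of 92249_g_at, lower in 4 of 4 pairs, was -0.85 to -0.0034 (adjusted p = 0.703 in limma). Fezf2, a zinc-finger factor that specifies subcortical projection neurons, had 0.30 (-0.10 to 0.70). Nfib probe set 99440_at had 0.23 (-0.17 to 0.64) and Pou3f1 0.23 (-0.23 to 0.69), and none of these passed. The other Nfib probe set, 160859_s_at, had 0.11 (-0.38 to 0.60), higher in 2 of 4 pairs, against 4 of 4 for 99440_at. Nfib (99440_at) was at 0.05 without deprived sample 1, Pou3f1 at 0.05 without non-deprived sample 1, and Fezf2 at 0.14 without deprived sample 3.

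The dissection was read from marker genes of other cells and regions. Of the excitatory neuron markers, which are also among the other layer genes, 3 of 5 were measured and all 3 lay above the filter. Their sum was 5903 to 11641 in deprived and 7050 to 9369 in non-deprived cortex, so the groups overlapped. The median log2 difference of these markers was -0.07, and 2 of the 3 lay below 0. The summed signal of markers overlapped between the groups for each of the lists of astrocytes, oligodendrocytes, microglia, endothelium, interneurons, striatum, hippocampus and thalamus. For striatum, which expresses Foxp1 and Pcp4 strongly, 3 of 7 markers were measured, and their sum was 1017 to 1601 in deprived and 1173 to 2366 in non-deprived cortex. For thalamus, 7 of 8 were measured, and the sum was 2042 to 2667 in deprived and 1921 to 2187.5 in non-deprived cortex. The median log2 difference was 0.22, and 1 of the 7 lay below 0, with Lhx9 and Gbx2 dim. Calb2 is on both the thalamus and the interneuron list. The part of these markers in the values of the layer genes was not tested.

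The start regions of 3 members are shown, the one with the largest difference, the one with the most probe sets and the one closest to 0 among deep-layer factors. Each window runs from 250 bases before to 50 after the first annotated start in RefSeq, written 5′ to 3′ on the strand of the gene, with capitals marking E-boxes (CANNTG, read on both strands), the motif bound by basic helix-loop-helix factors such as Neurod2.
Neurod2 (GRCm38.p6, chr11:98329596-98329895, minus strand): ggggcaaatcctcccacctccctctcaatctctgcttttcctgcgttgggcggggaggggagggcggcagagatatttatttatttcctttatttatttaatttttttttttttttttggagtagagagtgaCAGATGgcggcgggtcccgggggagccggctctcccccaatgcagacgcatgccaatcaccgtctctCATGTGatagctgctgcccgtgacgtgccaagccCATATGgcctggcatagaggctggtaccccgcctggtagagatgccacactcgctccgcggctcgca
Mef2c (GRCm38.p6, chr13:83503784-83504083, plus strand): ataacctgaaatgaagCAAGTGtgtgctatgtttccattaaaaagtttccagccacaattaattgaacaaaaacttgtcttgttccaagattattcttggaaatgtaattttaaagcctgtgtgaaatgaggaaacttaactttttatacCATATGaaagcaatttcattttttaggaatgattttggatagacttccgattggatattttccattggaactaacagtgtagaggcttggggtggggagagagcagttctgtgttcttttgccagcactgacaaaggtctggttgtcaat
Tbr1 (GRCm38.p6, chr2:61804203-61804502, plus strand): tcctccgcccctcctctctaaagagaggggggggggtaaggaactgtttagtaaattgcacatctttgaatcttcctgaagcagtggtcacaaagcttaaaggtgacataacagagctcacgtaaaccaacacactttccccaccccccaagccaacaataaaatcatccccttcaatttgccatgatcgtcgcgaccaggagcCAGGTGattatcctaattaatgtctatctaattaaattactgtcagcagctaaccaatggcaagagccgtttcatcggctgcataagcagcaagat
These hold 3, 2 and 1 E-boxes. All 8 named genes matched the table, with 15 start windows, of which 11 hold an E-box, against 72.3% of the 32851 mouse windows of this length. The motif TGACG, the core of the cAMP response element that many activity-induced promoters use, read on both strands, is in 2 of the 15 windows, 1 each of Neurod2 and Foxp1, against 20.8% of all windows. It is in 3 of the 3 windows of Fos, Junb and Nr4a1; no window of Egr1 was read. The CArG box, the motif of serum response factor, is in 0 of the 15 and in 0 of those 3, against 1.63% of all windows. These are matches of letters in short windows, and nothing on binding follows from them.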

How the data were processed

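Visual cortex was measured on 8 1-colour short-oligonucleotide arrays, 4 per group. The deposited table holds 1 linear intensity for each probe set. Per the submitters' processing notes it comes from MAS5, which combines perfect-match and mismatch probes; neither version nor settings were stated. Arrays, whose number limits the precision, were rescaled to the same 2% trimmed mean, 66 control probe sets removed, and log2(signal + 15.2) taken, the pseudocount being the 10th percentile; this understates changes of dim genes. Probe sets with a mean log2 value above the 40th percentile were tested (7453 of 12422). Of all, 10833 had 1 gene symbol, 396 several and 1193 none. Through Entrez identifiers, 10817 symbols were matched to the GRCm38.p6 gene table, whose symbol was used. The test was limma 3.58.1 under R 4.3.3 (intensity trend, two-sided, Benjamini-Hochberg over all tested probe sets, threshold 0.05), with 95% intervals from the same fit. The brightest probe set of each of 6 members also had an exact permutation test over 70 assignments (smallest possible p 0.0286).

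Same-numbered samples deviated together (r = 0.158 to 0.422 over probe sets, against -0.271 to 0.123 for different numbers), so blocked values stand beside members where useful. That a number is a mouse is not said in the labels. The members and lists were chosen with earlier results of these data known. Named genes are all members, fixed relatives, the 5 other layer probe sets with the smallest p, the gene nearest in profile to each member, and 4 activity-induced genes. The fit was checked on simulated data. Alternatives were other pseudocounts, no filter, other scalings, the replicate block, RNA integrity ratios as covariates and leaving out each sample. Figures were drawn with matplotlib 3.10.9.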

Additional observations from a re-analysis of the deposited data

Results flagged for a closer look

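In 8 of 78 groups of 4 arrays examined, a sample stood far from the other 3. The rule would flag about 1 in 20 groups, or 3.9, if values were normal and independent. It was applied to linear signals, and some groups share a gene and all share arrays, so no excess is shown. The value is the gap to the nearest sample divided by the range of the group. Among the members, Tbr1 was high in deprived replicate 2 (0.952, a signal of 5885 against 4531 in the next), Mef2c probe set 104591_g_at was low in deprived replicate 1 (0.964, 2378 against 3217), and the dim Pcp4 probe set was high in non-deprived replicate 2 (0.833). Replicate 1 was high for Neurod1 (0.865) and Nfib probe set 99440_at (0.8295) in deprived cortex. It was also high for Neurod6 (0.881) and Pcp4l1 probe set 160264_s_at (0.864) in non-deprived cortex. Junb probe set 102363_r_at was high in deprived replicate 4 (0.858).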

How the results depend on the processing

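Over 17 alternative fits, 0 of 170 values of the 10 members above the filter passed the threshold, the lowest adjusted p being 0.691, and the called number of members, of other layer probe sets and of all probe sets was 0 in each; the replicate block, fixed or random, changed no call. All probe sets at an unadjusted p under 0.05 numbered 199, but 491 with no filter (more probe sets tested), 524 with the replicate block, 535 with a random one, and 133 to 429 when a sample was left out. Quantile scaling turned Tbr1 to 0.016. With the actin ratio, Foxp1 (104415_at) was -0.22, Lmo4 -0.0053, Etv4 (161842_r_at) -0.053, Neurod1 -0.056, Mef2a -0.014 and the members' median -0.17. With the Gapdh ratio, Tbr1 was 0.23, Cux1 (98073_at) 0.11, Etv4 (161842_r_at) -0.015 and the dim Pcp4 1.15. Neither ratio differed between the groups past the threshold (exact permutation p = 0.171 and 0.143). With each sample left out, Tbr1 ran from -0.17 to 0.18, Foxp1 (104415_at) from -0.087 to 0.18, Mef2c from -0.037 to 0.25 (104591_g_at) and -0.099 to 0.075 (97357_at), and Cux1 (98073_at) from -0.14 to 0.077. The members' median ran from -0.072 to 0.12, highest without non-deprived replicate 2, and that of the other layer genes from -0.065 to 0.085, lowest without deprived replicate 4. The count of members at an unadjusted p under 0.05 ran from 0 to 1, the 1 being Neurod2 without deprived replicate 1 (-0.49, limma adjusted p = 0.911). Of relatives, Pcp4l1 (160264_s_at) ran from -0.39 to 0.064, Ldb1 from -0.19 to 0.0039, Neurod1 from -0.15 to 0.39, Etv4 (92979_at) from -0.23 to 0.097, Cux2 from -0.067 to 0.36, Lmo2 from -0.023 to 0.26 (93666_at) and -0.016 to 0.28 (96810_at), and Neurod6 from -0.40 to 0.018. Among the 44 results, all log2 differences and medians kept direction under either pseudocount, cyclic loess and the block. With no filter all of them did but the other layer genes' median, which turned to -0.012. The counts among the results have no direction and are given above. The small number of arrays limits what could be detected: a member's 95% interval reached from 0.30 to 0.45 either side of its value.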

Other observations

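For the brightest probe set of each member gene above the filter, the gene with the most similar profile was found. The measure was the mean absolute difference between log2 values centred on each probe set's mean over 8 arrays. For Mef2c this was 104590_at and for Foxp1 96183_at, and the other probe sets of these genes were not read. The nearest gene was Cdadc1 for Lmo4 (0.0424), Pick1 for Mef2c (0.0463), Nxf1 for Cux1 (0.0466), Selenot for Tbr1 (0.0486), Ier3 for Foxp1 (0.075) and Cela1 for Neurod2 (0.117). The members' own mean absolute deviations over the arrays were 0.134 for Lmo4, 0.155 for Mef2c, 0.206 for Cux1, 0.239 for Tbr1, 0.186 for Foxp1 and 0.267 for Neurod2. These are descriptions over 8 arrays, with the nearest taken among 7453 probe sets.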
